A study of Mus musculus with 7 samples.

Results

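The genes described here are 10 that code for proteins that bind, stabilise or take apart microtubules in neurons: the microtubule-associated proteins (MAPs) Map1a, Map1b, Map2, Map4 and Mapt, the stathmins Stmn2, Stmn3 and Stmn4, and the collapsin response mediator proteins (CRMPs) Dpysl2 and Dpysl3. They were chosen by gene symbol from a table of 54309 genes, each symbol matched 1 row, and all 10 were among the 14800 genes tested. Transcript abundance had been measured by RNA sequencing in 7 samples of lumbar (L4-6) dorsal root ganglia, which hold the cell bodies of sensory neurons, from male C57bl/6 mice of 6 to 8 weeks. All mice had a sciatic nerve injury at Zeitgeber time (ZT, hours after lights on) 20 or ZT8, and the ganglia were taken 72 h later, so that injury and dissection share 1 time of day in each group: ZT20 with 4 samples and ZT8 with 3. The ganglia were dissociated with enzymes and the cells passed over an albumin gradient, which enriches neurons without removing all other cells. No uninjured ganglia were analysed here, and the labels do not say whether each sample came from its own animal, so the p-values measure only the spread between these samples.

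Microtubules are polymers of tubulin that give an axon its core and carry its transport. Structural MAPs lie along the polymer and steady or bundle it, stathmins hold free tubulin and promote disassembly, and CRMPs bind tubulin dimers and favour assembly in growing axons. In a sensory neuron with a cut peripheral axon the microtubules of the stump have to be rebuilt into a growth cone, and several proteins of these families are known from that process. The comparison asks whether their transcripts in injured ganglia differ with the time of day.

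Before the results, 3 features of the libraries bear on them. In the ZT20 libraries labelled male, replicates 3 and 4 had a summed abundance of 4 Y-linked genes of only 0.0162 and 0.00868 TPM (a transcript's share of its library, corrected for transcript length), against 33.1 to 84.6 TPM in the other 5 samples, and Xist was above 1 TPM in ZT20 replicates 2, 3 and 4. ZT8 replicate 2 stood apart, with 18297 genes above 0 TPM against 22541 to 25238 elsewhere. Differences over all genes leaned towards ZT20 and grew with transcript length: the median log2 difference (ZT20 minus ZT8, on the log2(TPM + 1) scale) was 0.23 over all tested genes, and it ran from −0.13 to 0.69 over 10 groups of genes ordered by length. Neuron markers were abundant in every sample (10 genes, summed 12127 to 13822 TPM at ZT20 and 10208 to 13522 TPM at ZT8). The sums overlap, but the mean of the 10 on the log2(TPM + 1) scale did not, at 9.14 to 9.30 and 8.57 to 9.03. Of these markers 3 (Elavl4, Scn9a, Syt1) passed the test as higher at ZT20 and 0 as lower. Satellite glia markers (7 genes) summed to 1209 to 1548 TPM at ZT20 and 1929 to 2142 TPM at ZT8, and 4 of the 7 had a negative and 3 a positive log2 difference. The part of these shifts in the differences of single genes was examined only by the corrected fits given beside them. One of those fits takes a marker score as covariate, the mean log2(TPM + 1) of neuron markers minus that of markers of other cells. The score was 4.63 to 4.87 at ZT20 and 3.88 to 4.66 at ZT8. It nearly follows the groups, so in that fit cell make-up and time of day can hardly be told apart. In such bulk samples fewer cells of a type and less RNA per cell cannot be told apart.

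Of the 10 genes, 4 were higher at ZT20 (Dpysl2, Mapt, Map2 and Map4), 1 was lower (Stmn3), and 5 did not pass the test, which was limma with Benjamini-Hochberg adjustment over all 14800 genes and a threshold of 0.05. Over all tested genes 16.4% passed, 12.8% as higher and 3.61% as lower at ZT20. The same 5 genes had groups without overlap, in the direction of their differences, against 24.5% of all tested genes with all ZT20 samples higher and 8.72% with all ZT20 samples lower. The median log2 difference of the 10 genes was 0.60, and 0.11 after each sample had been corrected for transcript length and GC content. Dpysl2 and Stmn3 also passed after this correction, whereas Map2, Map4 and Mapt did not. Under that correction 8.79% of all tested genes passed, 3.66% as higher and 5.13% as lower. Without ZT20 replicate 3 and without ZT20 replicate 4, 3 of the 10 genes passed (Dpysl2, Map4 and Stmn3), while 723 of 14760 and 855 of 14777 tested genes did, against 2433 of 14800 with all samples. The plot of abundance by sample shows the values behind these statements.

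**Figure D1:**
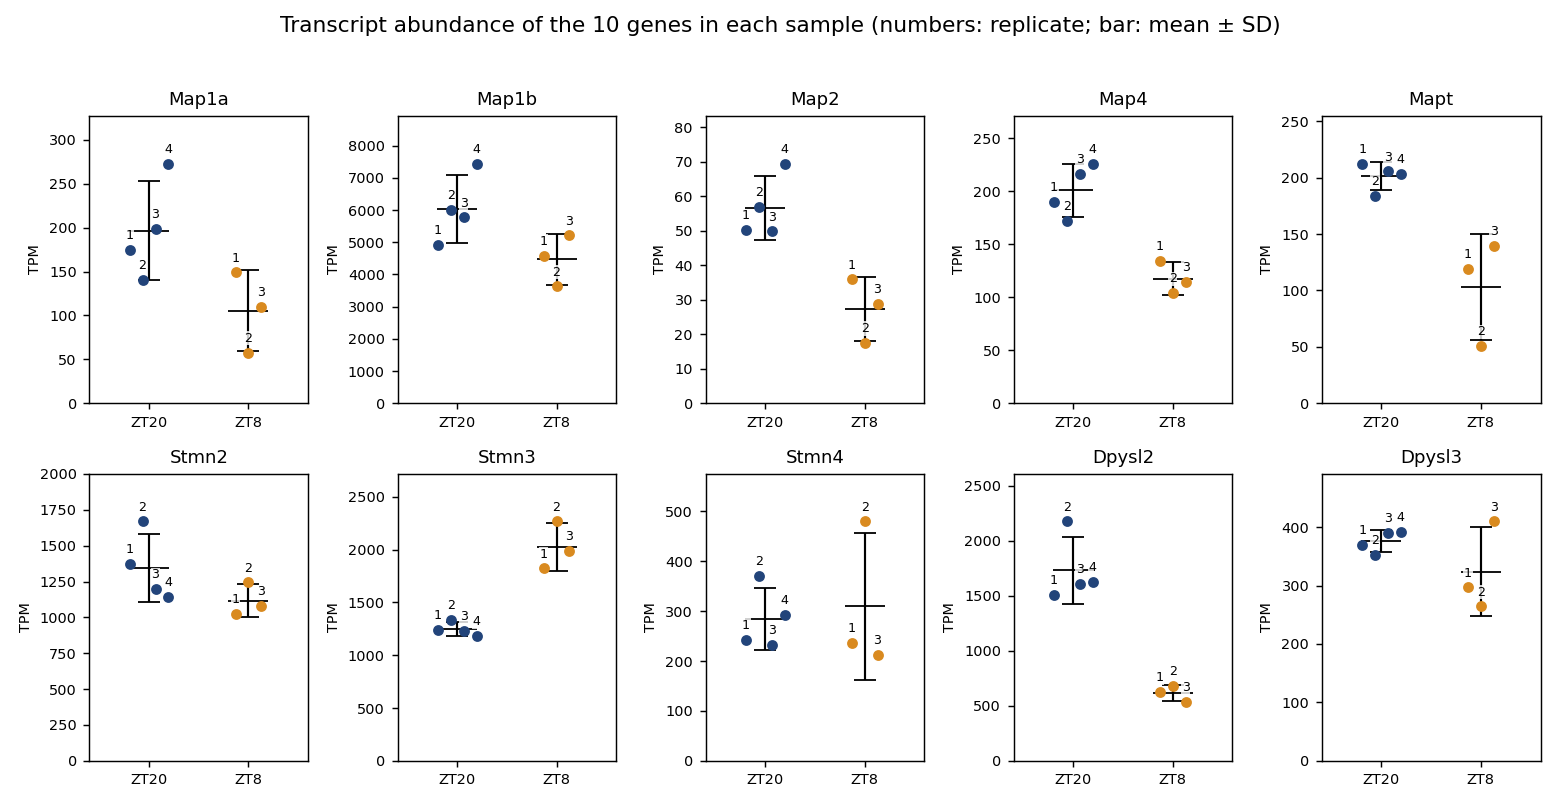
Abundance (TPM, y axis from 0) of each of the 10 genes in the 4 ZT20 and 3 ZT8 samples. Points are samples numbered by replicate, and the horizontal and vertical bars are the mean and SD. The groups are apart for Map2, Map4, Mapt, Stmn3 and Dpysl2, with Stmn3 alone of these lower at ZT20.

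Promoter sequences from RefSeq (build GRCm38.p6) were used for 5 of the 10 genes, as 6 windows of 300 bases that run from 250 before to 50 after a transcription start. Dpysl2 and Mapt also passed the test but had no window in the set used here. Shown are windows of the other genes that passed, Stmn3 (lower) and Map2 and Map4 (higher), because they moved in opposite directions. The upstream window of Map4 is given of its 2. Capitals mark matches to 4 motifs searched on both strands: CACGTG, the E-box bound by the clock factors, TTANNNAA, the core of the D-box, AGGTCA, the site of ROR and REV-ERB factors, and TGANTCA, the AP-1 site.
Stmn3, chr2:181314451-181314750, minus strand: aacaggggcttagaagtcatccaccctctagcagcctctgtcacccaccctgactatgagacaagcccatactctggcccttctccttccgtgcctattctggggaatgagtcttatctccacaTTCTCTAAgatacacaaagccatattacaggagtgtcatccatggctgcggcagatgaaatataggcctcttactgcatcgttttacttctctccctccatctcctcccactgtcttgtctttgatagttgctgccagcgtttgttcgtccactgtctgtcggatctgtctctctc
Map2, chr1:66175079-66175378, plus strand: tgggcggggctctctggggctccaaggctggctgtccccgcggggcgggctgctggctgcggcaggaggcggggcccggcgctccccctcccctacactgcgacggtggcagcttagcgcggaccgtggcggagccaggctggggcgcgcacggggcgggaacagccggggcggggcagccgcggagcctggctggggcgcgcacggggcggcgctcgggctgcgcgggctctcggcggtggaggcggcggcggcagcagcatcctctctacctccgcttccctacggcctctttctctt
Map4, chr9:109931524-109931823, plus strand: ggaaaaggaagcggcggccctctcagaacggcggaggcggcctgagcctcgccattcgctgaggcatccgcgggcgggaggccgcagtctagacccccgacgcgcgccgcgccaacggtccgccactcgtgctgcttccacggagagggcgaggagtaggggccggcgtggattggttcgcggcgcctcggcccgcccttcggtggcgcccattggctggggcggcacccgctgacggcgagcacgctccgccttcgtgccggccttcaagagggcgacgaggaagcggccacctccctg
The share of G and C was 77.7% in the window of Map2, 73.3% in the Map4 window shown and 46.0% in the other Map4 window, 49.7% in that of Stmn3, and 65.7% in those of Map1a and Map1b. Only 1 match was found in the 6 windows, the D-box core letters of Stmn3, and 34.7% of all 32851 promoter windows of this length hold those letters. E-box letters were present in 7.15% of all windows, AP-1 letters in 7.81% and the ROR or REV-ERB half-site letters in 16.3%, and in 0 of the 6. The absence of a match says only that these letters are not in these windows. The coordinates are those of the RefSeq build and were not converted to GRCm39, the build named for the deposited table.

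Dpysl2 (ENSMUSG00000022048) codes for CRMP2, which binds tubulin dimers and promotes axon elongation. Its abundance in ZT20 replicates 1 to 4 was 1511, 2178, 1608 and 1628 TPM, while ZT8 replicates 1 to 3 had 629, 682 and 539 TPM. The lowest ZT20 sample was thus far above the highest ZT8 sample, and the mean was 1731 ± 302 TPM (SD, n = 4) against 616 ± 72.1 TPM (SD, n = 3). The log2 difference was 1.48 with a standard error of 0.15, a 2.79-fold higher level at ZT20 (limma adjusted p = 0.00209). Among the 1962 genes that averaged 100 TPM or more, a level that Dpysl2 passed in every sample, 22 had a larger difference. After the length and GC correction the difference was 1.06 (standard error 0.18, limma adjusted p = 0.0165), and with the neuronal minus other-cell marker score as a covariate it was 1.74 (limma adjusted p = 0.0107).

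Dpysl3 (ENSMUSG00000024501), which codes for CRMP4, an actin and tubulin binding relative of CRMP2, did not pass the test. ZT20 replicates 1 to 4 had 370, 352, 390 and 392 TPM, against 297, 264 and 410 TPM in ZT8 replicates 1 to 3. The highest value of all was that of ZT8 replicate 3, so the groups overlapped, while the ZT20 samples lay close together (376 ± 18.8 TPM, SD, n = 4) and the ZT8 samples were spread more widely (324 ± 76.3 TPM, SD, n = 3). The log2 difference was 0.24 (standard error 0.15, limma adjusted p = 0.295), and its sign changed after the length and GC correction (−0.27, limma adjusted p = 0.260).

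The other CRMP genes were read out for comparison. Crmp1 averaged 148 ± 12.6 TPM in the ZT20 samples (SD, n = 4) and 133 ± 3.44 TPM in the ZT8 samples (SD, n = 3). Dpysl5 averaged 41.0 ± 8.52 and 29.2 ± 8.57 TPM, and the highest values of Dpysl4 were 13.3 and 18.8 TPM. None of these 3 passed (limma adjusted p from 0.174 to 0.774), and each had overlapping groups. The summed abundance of the 5 CRMP genes was 2066 to 2710 TPM at ZT20 and 1111 to 1120 TPM at ZT8. In ZT20 replicates 1 to 4 Dpysl2 made up 73.2%, 80.4%, 72.6% and 72.7% of that sum, against 56.2%, 61.1% and 48.5% in ZT8 replicates 1 to 3. The ratio of Dpysl2 to Dpysl3, which does not depend on scaling between samples, was 4.08 to 6.19 at ZT20 and 1.32 to 2.58 at ZT8. Transcripts of these genes are of similar length (4520 and 5479 nt for the longest annotated one).

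Stmn3 (ENSMUSG00000027581) codes for SCLIP, a membrane-bound stathmin of neurons that sequesters tubulin. It was the only 1 of the 10 genes to pass as lower at ZT20. ZT20 replicates 1 to 4 held 1244, 1337, 1227 and 1184 TPM of it, against 1823, 2268 and 1990 TPM in ZT8 replicates 1 to 3. Every ZT8 sample lay above every ZT20 sample, and the ZT20 samples were tightly grouped (1248 ± 64.6 TPM, SD, n = 4, against 2027 ± 225 TPM, SD, n = 3). The log2 difference was −0.69 with a standard error of 0.11, a level 1.62-fold higher at ZT8 (limma adjusted p = 0.00778). After the length and GC correction it was −0.68 (standard error 0.12, limma adjusted p = 0.0191), and under median-ratio scaling −0.93 (limma adjusted p = 0.0119). With the marker score as a covariate it was −0.62 and did not pass (limma adjusted p = 0.0772).

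Stmn2 (ENSMUSG00000027500), which codes for SCG10, the stathmin of regenerating axons and growth cones, reached 1372, 1669, 1196 and 1144 TPM in the ZT20 replicates. In the ZT8 replicates it reached 1025, 1243 and 1078 TPM. ZT20 replicates 3 and 4 fell within the reach of the ZT8 samples, and the log2 difference of 0.26 (standard error 0.15) did not pass (limma adjusted p = 0.254). Stmn4 (ENSMUSG00000022044), which codes for the RB3 stathmin, was at 243, 370, 233 and 292 TPM at ZT20 and 236, 480 and 212 TPM at ZT8. Here the highest sample of each group was replicate 2, the groups overlapped, and the log2 difference was −0.05 (standard error 0.29, limma adjusted p = 0.923).

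Stmn1, the widely expressed stathmin that lacks the membrane anchor of its relatives, averaged 708 ± 17.5 TPM in the ZT20 samples (SD, n = 4) and 894 ± 123 TPM in the ZT8 samples (SD, n = 3). The ranges did not overlap, but the log2 difference of −0.33 did not pass (limma adjusted p = 0.0875). It did pass under median-ratio scaling (−0.56, limma adjusted p = 0.0376) and without ZT8 replicate 1 (−0.44, limma adjusted p = 0.0384). It did not pass after the length and GC correction (−0.25, limma adjusted p = 0.222) or without ZT8 replicate 2 (−0.26, limma adjusted p = 0.147). Summed over Stmn1 to Stmn4 the stathmins were at 3308 to 4077 TPM at ZT20 and 3837 to 4965 TPM at ZT8, which overlap. The make-up differed between the groups in Stmn2 and Stmn3. Stmn2 made up 38.3%, 40.9%, 35.4% and 34.6% of the sum in the ZT20 replicates, against 26.7%, 25.0% and 25.5% in the ZT8 replicates. Stmn3 made up 34.7%, 32.8%, 36.3% and 35.8% at ZT20 and 47.5%, 45.7% and 47.0% at ZT8. The ratio of Stmn3 to Stmn2 was 0.907, 0.801, 1.03 and 1.03 in the ZT20 replicates and 1.78, 1.82 and 1.85 in the ZT8 replicates, so that both transcripts were about equally abundant at ZT20 and Stmn3 was the more abundant at ZT8. ZT8 replicate 2, the library that stood apart, had a ratio between those of the other ZT8 samples. The longest annotated transcripts of Stmn2 and Stmn3 are 3413 and 1136 nt, and the median log2 differences of all tested genes in their length groups were 0.24 and −0.13, in the same order as the differences of Stmn2 (0.26) and Stmn3 (−0.69). After the length and GC correction the differences were 0.056 for Stmn2 (limma adjusted p = 0.863) and −0.68 for Stmn3, closer together than before it.

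**Figure D2:**
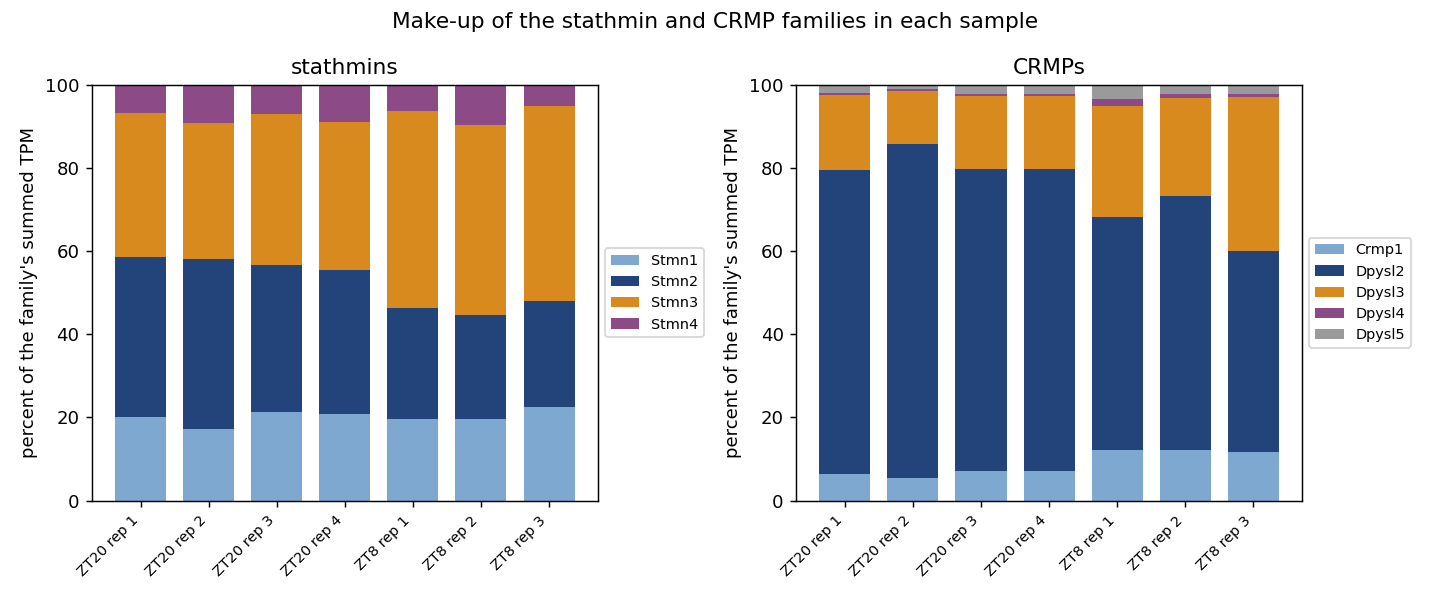
Stacked bars give each gene's percent of the summed TPM of its family, for the 4 stathmins (left) and the 5 CRMPs (right), with 1 bar per sample. The Stmn3 band is 45.7% to 47.5% of the stathmin bar at ZT8 and 32.8% to 36.3% at ZT20, and the Dpysl2 band is 48.5% to 61.1% of the CRMP bar at ZT8 and 72.6% to 80.4% at ZT20.

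Map1b (ENSMUSG00000052727), the MAP that dominates in young and regrowing axons, was by far the most abundant of the 10 genes in every sample and ranked between 3 and 21 among all genes of a sample. ZT20 replicates 1 to 4 had 4905, 6004, 5769 and 7436 TPM, against 4582, 3629 and 5211 TPM in ZT8 replicates 1 to 3. ZT8 replicate 3 lay above ZT20 replicate 1, so the groups overlapped, and the log2 difference of 0.43 (standard error 0.17) did not pass (limma adjusted p = 0.120). Its sign changed after the length and GC correction (−0.25, limma adjusted p = 0.374).

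Map1a (ENSMUSG00000027254), the related MAP that prevails in mature neurons, was at 175, 140, 199 and 273 TPM in the ZT20 replicates and 149, 57.7 and 110 TPM in the ZT8 replicates. ZT20 replicate 2 fell below ZT8 replicate 1, and ZT8 replicate 2 was the lowest of all. The log2 difference of 0.95 (standard error 0.33) did not pass (limma adjusted p = 0.0767), though it did without ZT8 replicate 1 (1.25, limma adjusted p = 0.0397). It was 0.58 without ZT8 replicate 2 (limma adjusted p = 0.151) and 0.21 after the length and GC correction (limma adjusted p = 0.667). The ratio of Map1b to Map1a ran from 27.3 to 42.8 at ZT20 and from 30.7 to 62.9 at ZT8, with overlapping ranges. Both genes have longest transcripts of nearly equal length (11808 and 11825 nt).

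Map2 (ENSMUSG00000015222) codes for a MAP of cell bodies and dendrites, and was the least abundant of the 10 genes. ZT20 replicates 1 to 4 had 50.2, 56.9, 49.8 and 69.4 TPM, against 35.9, 17.5 and 28.8 TPM in ZT8 replicates 1 to 3. The groups were apart, with ZT8 replicate 2 the lowest. The log2 difference was 1.06 with a standard error of 0.24, a 2.09-fold higher level at ZT20 (limma adjusted p = 0.0226). It fell to 0.49 after the length and GC correction and no longer passed (limma adjusted p = 0.178). It also did not pass without ZT20 replicate 3 (1.12, limma adjusted p = 0.0553) or without ZT20 replicate 4 (0.96, limma adjusted p = 0.0705), nor with the marker score as a covariate (0.87, limma adjusted p = 0.226).

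Map4 (ENSMUSG00000032479), a MAP found in most cell types and not in neurons alone, was at 190, 172, 216 and 226 TPM in the ZT20 replicates and 135, 104 and 114 TPM in the ZT8 replicates. The groups did not overlap and the spread within each was small (201 ± 24.7 TPM, SD, n = 4, and 118 ± 15.6 TPM, SD, n = 3). The log2 difference was 0.77 with a standard error of 0.14, a 1.70-fold higher level at ZT20 (limma adjusted p = 0.0120). After the length and GC correction 0.17 was left (limma adjusted p = 0.286), and with the marker score as a covariate it was 0.75 and did not pass.

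Mapt (ENSMUSG00000018411), which codes for tau, the MAP of axons, had 212, 184, 205 and 203 TPM in the ZT20 replicates, a narrow band. The ZT8 replicates, at 119, 50.5 and 140 TPM, were all lower and spread over a wider range. The log2 difference was 1.08 with a standard error of 0.30, a 2.11-fold higher level at ZT20 (limma adjusted p = 0.0447). Without ZT8 replicate 2, the lowest sample, it was 0.63 (limma adjusted p = 0.0107). It did not pass after the length and GC correction (0.56, limma adjusted p = 0.208) or under median-ratio scaling (0.85, limma adjusted p = 0.0735), and with the marker score as a covariate it was 0.35 (limma adjusted p = 0.577). Without ZT20 replicate 1, 2, 3 or 4 it did not pass either, with log2 differences of 1.05, 1.12, 1.07 and 1.07 (limma adjusted p from 0.0744 to 0.108). In the GENCODE M21 annotation all 5 MAP genes overlap other genes, while the stathmins and CRMPs among the 10 overlap none. Of the relatives and the genes with the largest differences in the wider list that are named here, all but Dpysl4 and Dcx overlap another gene. These are overlaps of whole gene spans, introns included, and shared exons were not looked at. Whether they affect the assignment of reads to the MAPs and those genes was not tested. The strand setting is not given in the sources used here, and some of these overlaps, such as that of Map1b, are with a gene on the same strand.

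The plot of differences under the scalings sets these results side by side. Median-ratio scaling, which makes the typical gene equal between samples, moved the median difference of all tested genes from 0.23 to 0.03 and the share of calls that were higher at ZT20 from 78.1% to 49.3%. Under quantile normalization that share was 55.7%, and after the length and GC correction 41.6%. Dpysl2, Map2 and Map4 stayed higher and Stmn3 stayed lower under median-ratio scaling with adjusted p-values of 0.00982, 0.0352, 0.0211 and 0.0119 (limma), where 15.5% of all tested genes passed, 7.62% as higher and 7.84% as lower. All 5 MAPs, Stmn2 and Dpysl3 kept positive differences under median-ratio scaling and quantile normalization. The differences of Stmn2 (0.03) and Dpysl3 (0.01) were close to 0 under median-ratio scaling.

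**Figure D3:**
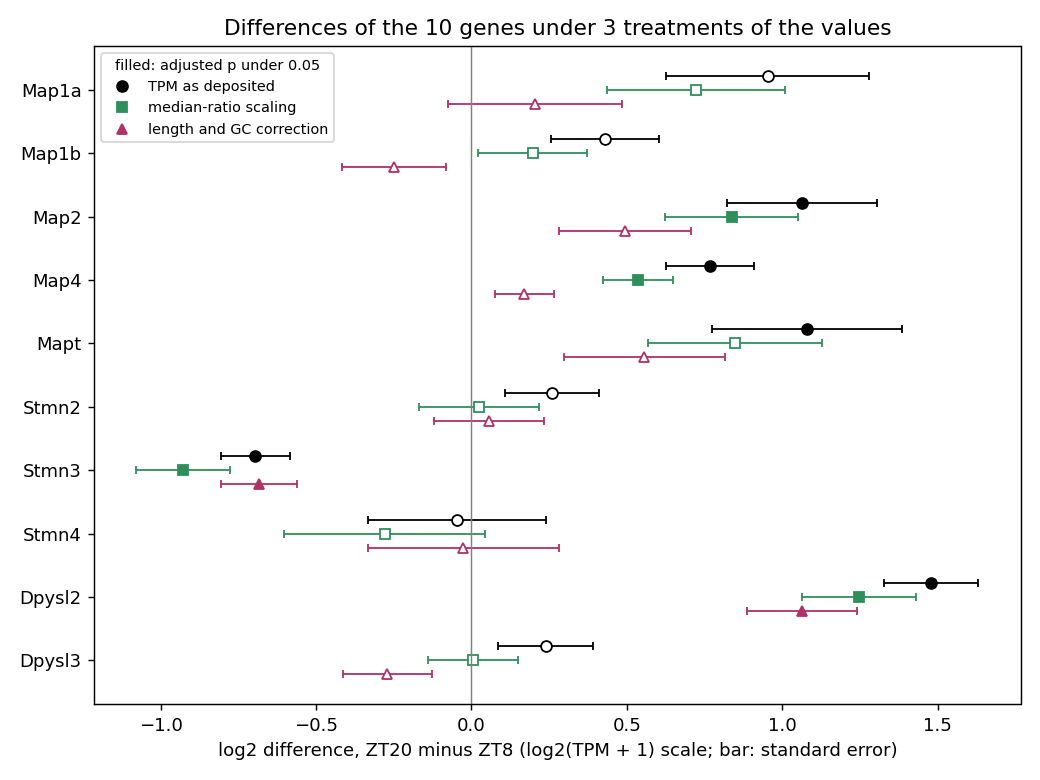
Log2 difference (ZT20 minus ZT8, x axis) of each gene with its standard error, from the TPM as deposited, with median-ratio scaling, and with correction for length and GC content. Filled symbols passed an adjusted p-value of 0.05. Dpysl2 and Stmn3 are filled under all 3, Map2 and Map4 under the first 2, and Mapt only for the deposited values.

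Transcript length set the background against which the 10 genes were read. The 5 MAPs and Dpysl3 have longest transcripts of 5253 to 11825 nt, in length groups whose median log2 difference over all tested genes was 0.56 or 0.69. The differences of Map2 (1.06), Mapt (1.08), Map1a (0.95) and Map4 (0.77) were above those medians, and those of Map1b (0.43) and Dpysl3 (0.24) below. Dpysl2 (1.48) stood further above the median of its group, 0.47. Stmn3 and Stmn4 share a length group with a median of −0.13, and there Stmn3 (−0.69) lay below and Stmn4 (−0.05) slightly above it. In the length group of Dpysl2 19.8% of genes passed as higher, and in that of Stmn3 9.97% passed as lower.

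**Figure D4:**
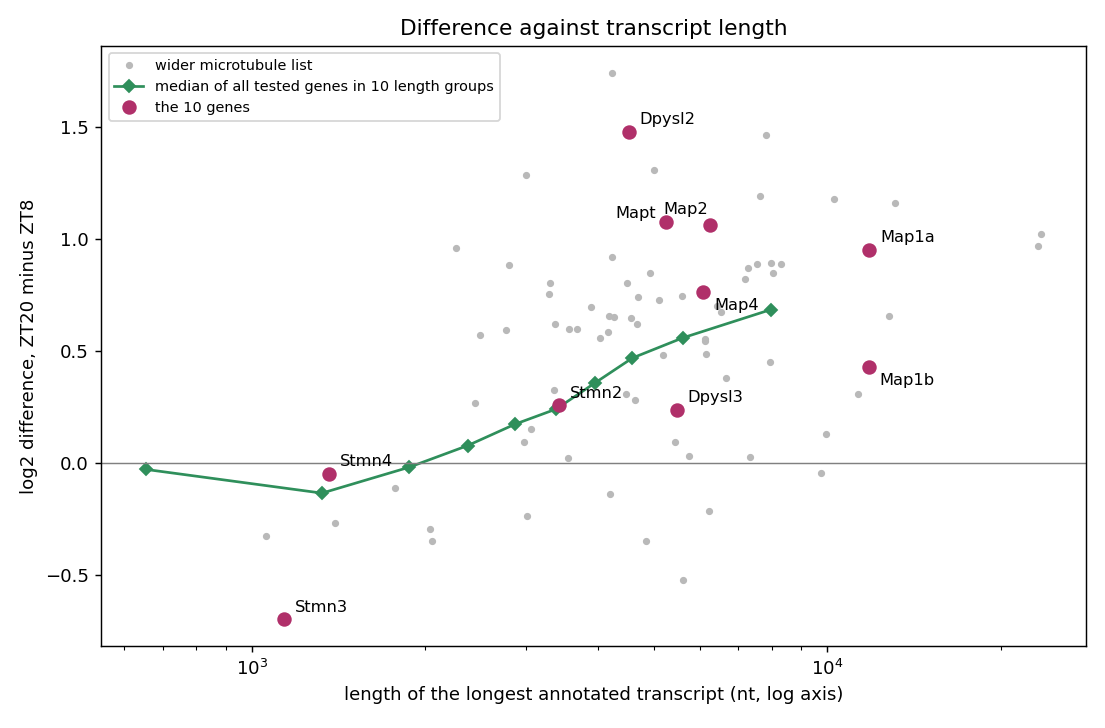
Log2 difference (ZT20 minus ZT8) against the length of the longest annotated transcript (log axis). Green diamonds are medians of all tested genes in 10 length groups, red points the 10 genes and grey points the other microtubule genes. Dpysl2 at 1.48 lies above the green line and Stmn3 at −0.69 below it, while Stmn2 lies almost on it.

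ZT20 replicates 3 and 4, whose Y-linked genes went against their label, were left out in a further fit. The log2 differences were then 1.56 for Dpysl2, −0.65 for Stmn3, 1.00 for Map2, 0.62 for Map4 and 1.05 for Mapt, all in the same direction as with them. With the 5 remaining samples limma called 0 genes of the whole table, and the adjusted p-values of these 5 genes were 0.0820 to 0.288. Without ZT20 replicates 2, 3 and 4, which leaves 1 ZT20 sample assumed to vary like the ZT8 samples, the same 5 differences were 1.30, −0.70, 0.91, 0.69 and 1.16, and 0 genes of the whole table were called.

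Around the 10 genes, a wider list of 73 genes that act on microtubules was read out in 5 classes. Of these 69 were tested, and 23 passed as higher at ZT20 and 0 as lower, against 12.8% and 3.61% of all tested genes. An unadjusted p-value under 0.05 was found for 44 of the 69 and for 5122 of all 14800 genes, and the median log2 difference of the list was 0.60. The list is one of long transcripts: 41 of the 69 were in the longest 3 of the 10 length groups, where 19.8%, 27.1% and 36.5% of all genes passed as higher. Leaving out ZT20 replicate 1, 3 or 4 gave 13, 10 and 11 higher genes of the list, and 952, 620 and 721 higher genes of all tested, against 1899 with all samples. Under median-ratio scaling 14 passed as higher and 3 as lower, against 7.62% and 7.84% of all tested genes. After the length and GC correction 4 passed as higher (Camsap2, Clip2, Clasp1 and Brsk2) and 1 as lower (Mapre1, named after its value was seen), against 3.66% and 5.13% of all tested genes, and the median of the list was 0.17.

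Among other structural MAPs, 5 of 20 tested genes passed as higher and 0 as lower (median log2 difference 0.60), against 12.8% and 3.61% of all tested genes. Of the 20, 11 were in the longest 3 length groups, and 0 passed after the length and GC correction (median 0.19). Map6, the STOP protein that makes neuronal microtubules resistant to cold, averaged 185 ± 30.0 TPM in the ZT20 samples (SD, n = 4) and 105 ± 34.0 TPM in the ZT8 samples (SD, n = 3; log2 difference 0.85, limma adjusted p = 0.0381). Mtcl1, a microtubule crosslinking factor, was at 19.5 ± 1.90 and 10.2 ± 0.385 TPM (0.87, limma adjusted p = 0.0103), and Mtus1, a microtubule-binding tumor suppressor, at 85.6 ± 9.79 and 53.1 ± 2.47 TPM (0.67, limma adjusted p = 0.0127). None of these 3 passed after the length and GC correction, and Map6 passed only with ZT8 replicate 1 or ZT20 replicate 2 left out among the fits that each dropped 1 sample. Dcx, the doublecortin of migrating young neurons, was below the tested range, at 0.357 to 0.730 TPM at ZT20 and at most 0.171 TPM at ZT8.

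Proteins of the microtubule ends and spectraplakins held 9 genes that passed as higher among 20 tested, and 0 as lower (median log2 difference 0.59), against 12.8% and 3.61% of all tested genes. Of the 20, 16 were in the longest 3 length groups, and 3 passed as higher and 1 as lower after the length and GC correction (median 0.16). Camsap2, which caps and stabilises minus ends, averaged 17.5 ± 1.42 TPM in the ZT20 samples (SD, n = 4) and 5.73 ± 0.812 TPM in the ZT8 samples (SD, n = 3; log2 difference 1.47, limma adjusted p = 0.00310). Clip2, a plus-end linker, was at 11.1 ± 2.25 and 3.84 ± 0.629 TPM (1.31, limma adjusted p = 0.00945). Clasp1, which rescues shrinking plus ends, was at 66.2 ± 3.20 and 28.8 ± 4.47 TPM (1.18, limma adjusted p = 0.00317). These 3 also passed after the length and GC correction, with log2 differences of 0.85, 0.73 and 0.52. None of them passed when the replicate number was added to that corrected fit. With the marker score as a covariate Clip2 did not pass (1.27, limma adjusted p = 0.0890), while Camsap2 (1.33) and Clasp1 (1.36) did.

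Of the severing enzymes, such as spastin and the katanins, 0 of 7 tested genes passed with limma, against 16.4% of all tested genes. With 7 genes this is too few to set the class apart. An unadjusted p-value under 0.05 was found for 3 of the 7 and for 5122 of all 14800 genes. Of 18 kinases known to phosphorylate MAPs, stathmins or CRMPs, 9 passed as higher and 0 as lower (median log2 difference 0.78), against 12.8% and 3.61% of all tested genes. Of the 18, 9 were in the longest 3 length groups, and 1 passed as higher and 0 as lower after the length and GC correction (median 0.29). The largest differences were those of Brsk2 and Brsk1, kinases of neuronal polarity that act on tau, and of Rock2, which phosphorylates CRMP2. Brsk2 averaged 8.55 ± 2.04 TPM in the ZT20 samples (SD, n = 4) and 1.93 ± 1.00 TPM in the ZT8 samples (SD, n = 3; log2 difference 1.74, limma adjusted p = 0.00919). Brsk1 (4.29 ± 0.962 and 1.17 ± 0.461 TPM, 1.29, limma adjusted p = 0.0161) and Rock2 (8.38 ± 1.16 and 3.17 ± 1.02 TPM, 1.19, limma adjusted p = 0.0153) did not pass after the length and GC correction, whereas Brsk2 did (1.29). Brsk1 also did not pass without ZT20 replicate 1, 3 or 4, nor Rock2 without ZT20 replicate 3. With the marker score as a covariate Brsk2 (1.42), Brsk1 (1.43) and Rock2 (0.93) did not pass (limma adjusted p = 0.117, 0.0955 and 0.174). The remaining stathmins and CRMPs, Stmn1, Crmp1, Dpysl4 and Dpysl5, passed in 0 of 4 cases with limma, against 16.4% of all tested genes. Of the 4, 1 had an unadjusted p-value under 0.05.

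**Figure D5:**
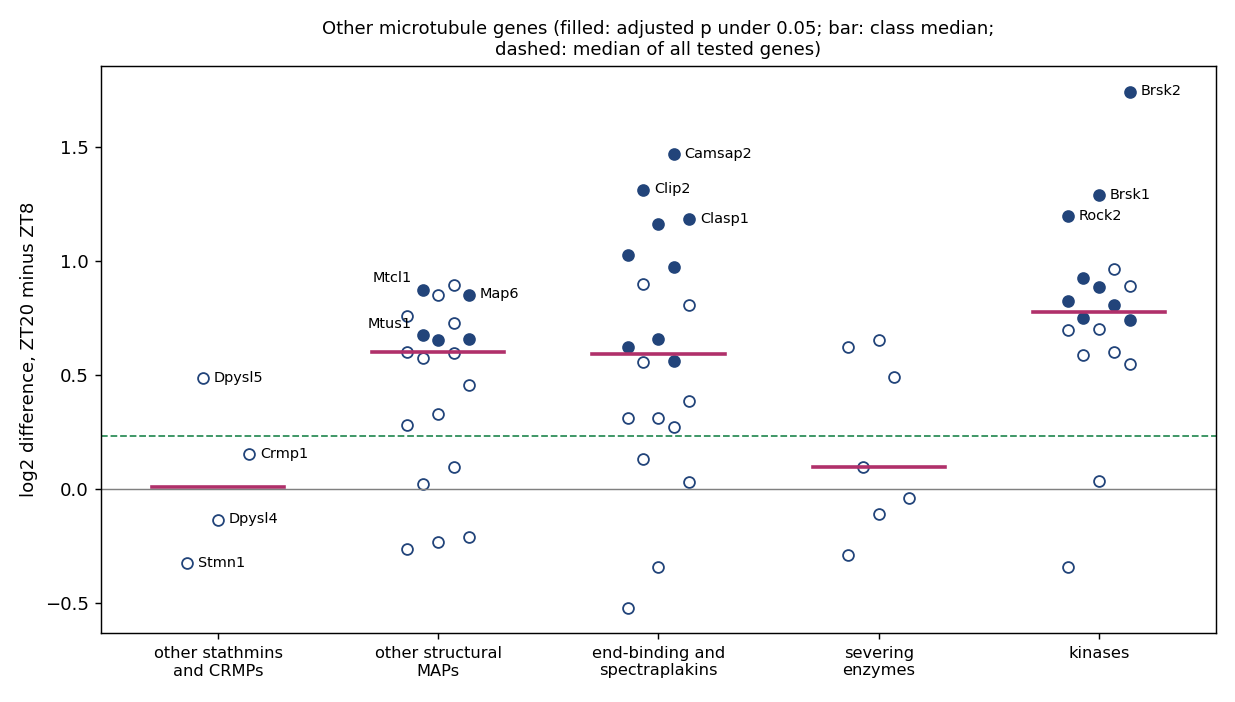
Log2 difference (ZT20 minus ZT8, y axis) of the 69 tested genes of the wider list in 5 classes. Points are genes, filled where the adjusted p-value was under 0.05, red bars are class medians and the dashed line is the median of all tested genes, 0.23. Filled points are found among structural MAPs, end-binding proteins and kinases, and all of them lie above 0.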

How the data were processed

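Expression was measured in 7 samples, grouped by their titles, and the authors deposited a table of TPM with a column per sample, each scaled to the same total. The submitters' processing notes name FastQC 0.11.9, Trim Galore 0.6.6, Salmon 1.6.0, DESeq2 1.34.0 and GRCm39, without their roles. Library names follow one scheme at ZT20 (numbers) and another at ZT8 (letters), so a batch, had there been one, and the time of day cannot be told apart. The annotation release and strand setting are not given in the sources used here. TPM keeps no read numbers, so sequencing depth and counting error are unknown. A rise in abundant genes lowers all other values.

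Values were analysed as log2(TPM + 1), a scale on which changes of low genes come out smaller than they are. Genes averaging 1 TPM or more were fitted with limma 3.58.1 (lmFit, eBayes with intensity trend, two-sided) in R 4.3.3 without covariates, with Benjamini-Hochberg adjustment and a threshold of 0.05. The test was tried on simulated data for this comparison with 14800 genes, of which 200 were changed by 1.5 on the log2 scale. Of changed genes 62.5% were called, 3.85% of calls were unchanged genes, and 0 genes were called when none was changed. The simulated noise was independent between genes, and the changes went up and down in equal numbers. No shift with transcript length and no library that stood apart was simulated, so these rates may not hold for the real samples.

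The 10 genes and the wider list were chosen with earlier results of these data known. The text names the 10 genes, 6 relatives (Stmn1, Crmp1, Dpysl4, Dpysl5, Map6, Dcx) and, per class of the wider list, up to 3 genes with the largest differences among those that passed without overlap. Length and GC content are those of the longest GENCODE M21 transcript, matched by identifier for 51484 genes. That annotation is on another build, so its coordinates served only to find overlaps between its own genes and are not printed. The length and GC correction removed each sample's loess trend (span 0.3) on both. The values of 1 marker gene are not reported here. Shares and ratios within a family are descriptions without a test. Tables and figures were made with pandas 2.3.3, matplotlib 3.10.9 and version 1.17.8 of data.table. The alternatives tried were a pseudocount of 0.1, other filters, median-ratio and quantile scaling, the length and GC correction, the replicate block, a marker score as covariate, array weights, no intensity trend, a threshold of 0.10, and leaving out samples.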

Additional observations from a re-analysis of the deposited data

Results flagged for a closer look

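Each of the 24 named genes was examined for a ZT20 sample far from the other 3, meaning that its gap to the nearest neighbour, as a share of the range of the group, was above Dixon's critical value for 4 samples. Chance gives about 1.2 in 24, and 1 was found. ZT20 replicate 4 had 100.1 TPM of Mtus1, against 78.5 to 82.0 TPM in ZT20 replicates 1 to 3, a gap of 0.835 of the range. All ZT20 values lay above the ZT8 values of 50.7 to 55.6 TPM, and without ZT20 replicate 4 the log2 difference was 0.60 (limma adjusted p = 0.0425). None of the 10 genes had such a sample, though Dpysl2 came close, with a gap of 0.825 of the range for ZT20 replicate 2, its highest sample.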

How the results depend on the processing

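Stmn2 kept its direction and did not pass in any alternative run (limma adjusted p from 0.131 to 0.938), and Dpysl2 and Stmn3 kept their direction in all of them. The cause of the changes below was not tested unless stated. Counts are of genes past the threshold among the 10 genes, the wider list and all tested genes, and other values are log2 differences (ZT20 minus ZT8).

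Without a filter on low values the counts were 3 (2 higher), 12 (12 higher) and 1178 (978 higher, 200 lower), with Map2 at 1.06 and Mapt at 1.08 no longer passing. In this setting more genes were tested. Median-ratio scaling gave 14 higher and 3 lower genes of the wider list and 1128 higher and 1160 lower of all, with Mapt at 0.85 no longer passing and Crmp1 reversed (−0.080). Quantile normalization gave 1023 higher and 814 lower of all and Stmn4 at 0.012. A filter at a mean of 5 TPM gave 1 lower gene of the wider list. Mapt also failed with a pseudocount of 0.1 (1.09) and without the intensity trend (1.08), which gave 332 lower genes of all. Array weights gave 1 lower gene of the wider list and 3899 of all (2982 higher, 917 lower), and Stmn4 was at 0.14. At a threshold of 0.10 the wider list held 37 (35 higher, 2 lower) and all genes 4079 (3098 higher, 981 lower), and Map1a passed (0.95).

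The length and GC correction gave 2 (1 higher), 5 (4 higher, 1 lower) and 1296 (539 higher). Map2 (0.49), Map4 (0.17) and Mapt (0.56) no longer passed, and Map1b (−0.25), Dpysl3 (−0.27), Crmp1 (−0.11) and Dpysl5 (−0.081) were reversed. The same correction without ZT8 replicate 2, an alternative added after seeing the data, gave 2 (1 higher), 11 (7 higher, 4 lower), and 894 higher and 951 lower of all. Map2 (0.24), Map4 (0.15) and Mapt (0.19) did not pass, and Map1a (−0.14), Map1b (−0.41), Stmn4 (0.38), Dpysl3 (−0.34) and Dpysl5 (−0.092) were reversed.

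Replicate numbers are shared between the groups, but the deviations of same-numbered samples correlated at only −0.0141, 0.153 and 0.083, so the numbers were not taken as pairs. With the replicate block the counts were 3 (2 higher), 13 (13 higher) and 1174 (891 higher, 283 lower), and Map2 (0.96) and Mapt (1.07) did not pass. With the replicate block and the length and GC correction they were 2 (1 higher), 2 (1 higher, 1 lower) and 611 (263 higher, 348 lower). Map2 (0.42), Map4 (0.14) and Mapt (0.58) did not pass, and Map1b (−0.33), Dpysl3 (−0.26), Crmp1 (−0.12) and Dpysl5 (−0.12) were reversed.

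With the marker score as covariate the counts were 1 (1 higher, 0 lower), 6 (6 higher) and 448 (417 higher, 31 lower). Map2 (0.87), Map4 (0.75), Mapt (0.35) and Stmn3 (−0.62) did not pass, and Stmn4 (0.61), Dpysl3 (−0.13) and Dpysl4 (0.095) were reversed. Without the ZT20 libraries whose Y-linked genes were near 0, and without those with Xist above 1 TPM, limma called 0 genes in each count, with fewer samples. In the first Map2 (1.00), Map4 (0.62), Mapt (1.05), Stmn3 (−0.65) and Dpysl2 (1.56) did not pass and Stmn4 was at 0.054. In the second these 5 genes were at 0.91, 0.69, 1.16, −0.70 and 1.30, and Crmp1 at −0.0075.

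Leaving out 1 sample at a time gave 3 to 6 of the 10 genes (2 to 5 higher, 1 lower throughout), 10 to 21 of the wider list (10 to 21 higher, 0 to 1 lower) and 723 to 3047 of all genes (620 to 2375 higher, 103 to 672 lower). The differences then ran from 0.58 to 1.25 for Map1a, 0.29 to 0.55 for Map1b, 0.78 to 1.28 for Map2, 0.68 to 0.87 for Map4 and 0.63 to 1.36 for Mapt. They ran from 0.15 to 0.34 for Stmn2, −0.77 to −0.61 for Stmn3, −0.27 to 0.32 for Stmn4, 1.36 to 1.56 for Dpysl2 and 0.11 to 0.42 for Dpysl3. Dpysl4 ran from −0.36 to 0.17 and was reversed without ZT20 replicate 2 (0.041) and without ZT8 replicate 1 (0.17). Sequencing depth is unknown from TPM, so no limit of detection can be given for low genes such as Dcx and Brsk1.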

Other observations

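At ZT20 the coefficient of variation was 5.00% for Dpysl3, 5.17% for Stmn3 and 6.12% for Mapt, and it was highest for Map1a, at 28.5%. At ZT8 it was lowest for Stmn2, at 10.2%, and above 40% for Map1a (43.5%), Mapt (45.3%) and Stmn4 (47.9%). ZT8 replicate 2 was the lowest of the 7 samples for 6 of the 10 genes (the 5 MAPs and Dpysl3) and the highest for 2 (Stmn3 and Stmn4). In ZT20 replicate 2, 2 genes had their highest value (Dpysl2 and Stmn2), and in ZT20 replicate 4, 4 genes had theirs (Map1a, Map1b, Map2 and Map4). The summed share of the 10 genes in a library was 1.03% to 1.28% in the ZT20 samples and 0.880% to 0.983% in the ZT8 samples.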
